A study of Arabidopsis thaliana with 6 samples.

Results

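AMS (AT2G16910), A9 (AT5G07230) and SPL (AT4G27330) are 3 genes of the Arabidopsis thaliana anther, and their transcript abundance was compared between ddm1 and wild type flower buds. They were chosen by name for their place in tapetum and sporogenous tissue, with earlier results of these data known. Counts of them set beside all probe sets are therefore descriptive. Each was read by a single-gene probe set of its own, and they are 3 of 13356 genes that the array annotation names by such a probe set. The tested buds came from ddm1 plants at inbred generation 6, with 3 biological replicates, and were set against buds of wild type plants of the Col accession, also with 3. DDM1 is a nucleosome remodeller on which DNA methylation in heterochromatin and transposon silencing depend. All plants grew on soil at 23 °C under 18 hours of light a day, and unopened buds were taken. The labels name no ddm1 allele and no inbreeding for wild type, so the mutation and the inbreeding history cannot be told apart, and each sample mixes bud stages and floral organs.

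In the anther, SPL (SPOROCYTELESS, also called NOZZLE) encodes a nuclear protein needed for archesporial cells to form sporogenous tissue, in the anther as well as in the ovule. The tapetum is the innermost wall layer around the developing pollen and supplies it with nutrients, enzymes and wall material. AMS (ABORTED MICROSPORES) encodes a basic helix-loop-helix transcription factor required for tapetum function and pollen wall formation, downstream of the regulator DYT1. A9 encodes a small secreted protein of the lipid-transfer and protease-inhibitor type made in the tapetum, and its promoter is widely used to drive transgenes there.

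AMS and A9 transcripts were lower in ddm1 buds, and SPL had the same sign without passing the test. The deposited values are GCRMA log2 values from which a baseline was taken for each probe set, so differences between arrays can be read and levels cannot. Calls were made at a limma adjusted p under 0.05, with Benjamini-Hochberg adjustment over all 22746 probe sets tested. By this rule 2 of the 3 genes were called lower, where the share called lower over all probe sets was 5.68%. The same test called 3.5% higher. In whole buds, fewer tapetal cells and less RNA per cell cannot be told apart.

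The AMS probe set read -1.04, -1.17 and -0.88 in ddm1 replicates 1, 2 and 3, against 0.19, 0.28 and 0.14 in the wild type replicates. All ddm1 arrays lay more than 1 log2 unit below the lowest wild type array, the gap being 1.02. The log2 difference, ddm1 minus wild type, was -1.23 ± 0.08 (SE, n = 3 arrays per genotype), which is 2.35-fold lower, with a 95% interval of -1.44 to -1.02 and a limma adjusted p of 0.00099. Differences at least as low were found at 318 of the 22746 probe sets.

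A9 read -0.99, -0.62 and -0.86 in ddm1, against 0.25, 0.25 and 0.29 in wild type. Its wild type arrays were nearly identical, with an SD of 0.0239, and the ddm1 arrays were spread more widely, with an SD of 0.192. The groups did not overlap, and the gap between them was 0.86. The log2 difference was -1.08 ± 0.10 (SE, n = 3 per genotype), or 2.12-fold lower, with a 95% interval of -1.33 to -0.84 and a limma adjusted p of 0.00313. A difference this low or lower was found at 391 probe sets.

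SPL read -1.08, -0.19 and -0.64 in ddm1, against 0, 0.47 and 0.07 in wild type. The ddm1 arrays again lay below all wild type arrays, but by a gap of only 0.19, between ddm1 replicate 2 and wild type replicate 1. The log2 difference was -0.82 ± 0.26 (SE, n = 3 per genotype; 95% interval -1.46 to -0.17, not adjusted for the number of probe sets). Its limma p was 0.0217 before adjustment and 0.135 after it. The scatter of SPL was high in both genotypes, with an SD of 0.445 in ddm1 and 0.252 in wild type, where the median SD over all probe sets was 0.0770 in ddm1 and 0.0636 in wild type. Among all probe sets, 97.1% had an SD in ddm1 at or below that of SPL, and 94.3% had one in wild type.

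**Figure D1:**
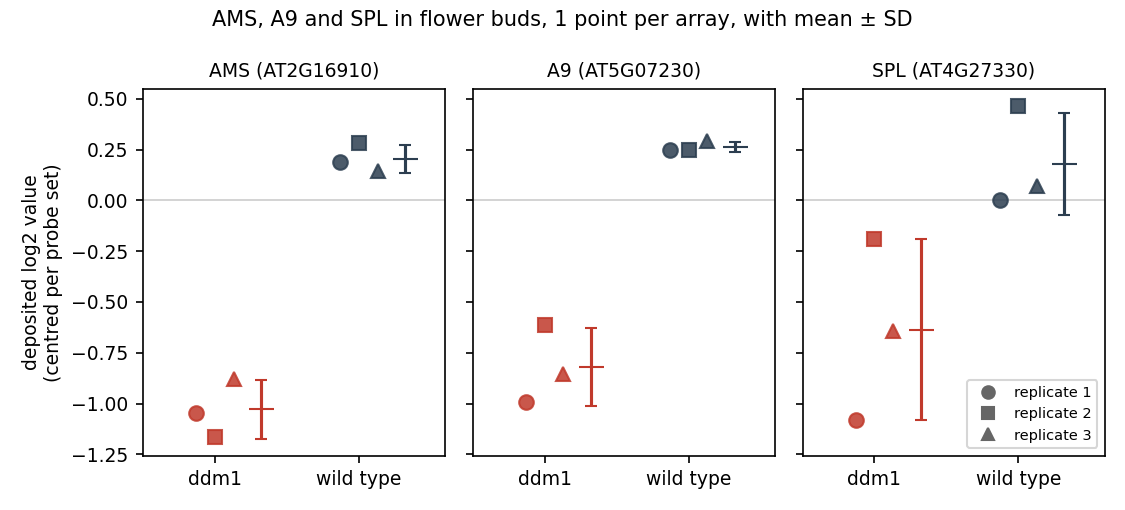
Deposited log2 values, centred per probe set (vertical axis), of AMS, A9 and SPL in the 3 ddm1 arrays (red, left) and the 3 wild type arrays (dark, right); marker shapes give the replicate and the bars the mean ± SD. The ddm1 arrays lie below all wild type arrays for each gene, with gaps of 1.02 for AMS, 0.86 for A9 and 0.19 for SPL.

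Every ddm1 array lay below every wild type array for 3 of the 3 genes, which held for 16.7% of all probe sets. An exact permutation test of each gene over the 6 arrays gave a two-sided p of 0.1, the smallest that 3 arrays against 3 allow. Leaving out each array in turn kept the AMS difference between -1.31 and -1.17 and the A9 difference between -1.19 and -0.999. Both calls were kept in these 6 fits, with limma adjusted p up to 0.00891 for AMS and 0.0210 for A9. SPL was called in 0 of these fits. Its difference was -1.04 without ddm1 replicate 2 and -0.59 without ddm1 replicate 1, with limma adjusted p-values of 0.0658 and 0.213. Without wild type replicate 2 it was -0.67 (limma adjusted p = 0.281).

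The 3 genes did not keep the same order over the ddm1 arrays. Replicate 2 had the lowest AMS value of the ddm1 arrays and the highest A9 and SPL values. Within an array, AMS minus SPL was 0.04, -0.98 and -0.23 in ddm1 replicates 1, 2 and 3, against 0.19, -0.19 and 0.08 in wild type. AMS minus A9 averaged -0.21 ± 0.30 in ddm1 and -0.06 ± 0.09 in wild type (SD, n = 3 each). A9 minus SPL averaged -0.18 ± 0.26 in ddm1 and 0.09 ± 0.26 in wild type (SD, n = 3 each). The changes of the 3 genes thus differed from one another by -0.42 for AMS against SPL, -0.27 for A9 against SPL and -0.15 for AMS against A9 on the log2 scale. Without ddm1 replicate 2 these were -0.13, -0.15 and 0.02, without ddm1 replicate 1 they were -0.63, -0.40 and -0.23, and without wild type replicate 2 A9 against SPL was -0.42. The groups overlapped in all 3 pairs. Exact permutation tests gave two-sided p-values of 0.2, 0.3 and 0.7, or 0.45, 0.45 and 0.7 adjusted over the 3 pairs. In a design that cannot go below 0.1, these do not show that the genes changed alike.

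The comparison was then carried to other genes of the same tissue, from 3 lists of 80 genes around AMS, A9 and SPL. The lists too were chosen with earlier results of these data known. A single-gene probe set measured 18 of the 80. Of these 18, 8 fell and 0 rose by limma over all probe sets, where 5.68% of all probe sets fell and 3.5% rose. Their median log2 difference was -0.45, beside 0.00445 over all probe sets. At an unadjusted p under 0.05, 9 were lower, where 14.6% of all probe sets were. All 8 that fell belonged to the tapetum lists, whose 13 measured genes had a median log2 difference of -0.91. The count of 8 was 5 without wild type replicate 3, and 4 when the variance of each probe set was used without moderation.

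The few measured genes that act before the tapetum matures were not called. In the anther cell fate list 5 of 20 genes were measured and 0 were called by limma, with 0 at an unadjusted p under 0.05. Over all probe sets 5.68% were called lower and 3.5% higher, so 0 of 5 does not set these genes apart. EMS1, the receptor kinase through which tapetal fate is specified, differed by 0.01 ± 0.10 (SE) with a 95% interval of -0.26 to 0.27. The glutaredoxin genes ROXY1 and ROXY2, which act in anther lobe formation, differed by -0.02 ± 0.05 and -0.04 ± 0.04. The organ-growth zinc finger genes JAG and NUB stood at 0.08 ± 0.04 and 0.14 ± 0.06. Whether these 5 transcripts lay above background is unknown, so a change below the detection range would not show.

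Of the tapetum regulators, 2 of 11 were measured, AT1G06170 and AT2G31210, to which the RefSeq table gives no symbol. AT1G06170 read -1.32, -1.06 and -0.95 in ddm1, against 0.27, 0.30 and 0.24 in wild type. All ddm1 arrays lay far below wild type, and the locus fell by 1.38 ± 0.10 (SE, n = 3 per genotype; limma adjusted p = 0.00124), the deepest called fall of the 3 lists. AT2G31210 read -1.37, -0.56 and -0.70 in ddm1, against 0.77, 0.44 and -0.19 in wild type. It did not pass the test, at -1.21 ± 0.33 (limma adjusted p = 0.0926), and its groups did not overlap. DYT1, TDF1, MYB80 and MS1, main regulators of the tapetum, were not analysed here.

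Of the tapetum product and pollen wall list, 11 of 49 genes were measured, and 7 fell. SHT, a spermidine hydroxycinnamoyl transferase that makes phenolic compounds of the pollen coat, read -0.78, -0.81 and -0.71 in ddm1, against 0, 0.09 and 0.04 in wild type. Its arrays were tight within each genotype, and its fall of 0.81 ± 0.04 (SE; limma adjusted p = 0.0003) had the lowest adjusted p of the list. AT5G62080 fell by 1.04 ± 0.07, AT5G52160 by 1.29 ± 0.19 and AT1G33430 by 1.09 ± 0.12 (SE; limma adjusted p = 0.000853, 0.0160 and 0.00585). ATA27, a beta-glucosidase gene first found in the tapetum, read -0.98, -0.66 and -0.60 in ddm1, against 0.21, -0.01 and 0.29 in wild type. It fell by 0.91 ± 0.13 (limma adjusted p = 0.0150). The sugar transporter gene RPG1 (SWEET8), required for the pollen wall, read -0.77, -0.59 and -0.41 in ddm1, against -0.03, 0.13 and 0 in wild type, a fall of 0.63 ± 0.10 (limma adjusted p = 0.0231). RPG1 was named after its value was seen, to complete the 7.

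AT1G75920 fell by 1.27 ± 0.18 (SE; limma adjusted p = 0.0151). It stands in the gene order between EXL4 and EXL6, which encode extracellular lipases and were not analysed here, and ATA27 follows EXL6. Other measured loci of this row were not called. AT1G75880 was at -0.28 ± 0.21, AT1G75890 at 0.46 ± 0.12 and AT1G75900 at 0.01 ± 0.06, with limma adjusted p-values of 0.506, 0.0862 and 0.913. The 95% interval of AT1G75880 ran from -0.81 to 0.24, so a fall of that locus is not excluded. UNDEAD, an aspartic protease gene of the tapetum, was at 0.29 ± 0.14 (limma adjusted p = 0.290). These 4 were also named after their values were seen. AT1G75890 read 0.26, 0.54 and 0.15 in ddm1, against 0, -0.24 and -0.18 in wild type, so that its groups were apart in the opposite direction to AMS and A9.

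**Figure D2:**
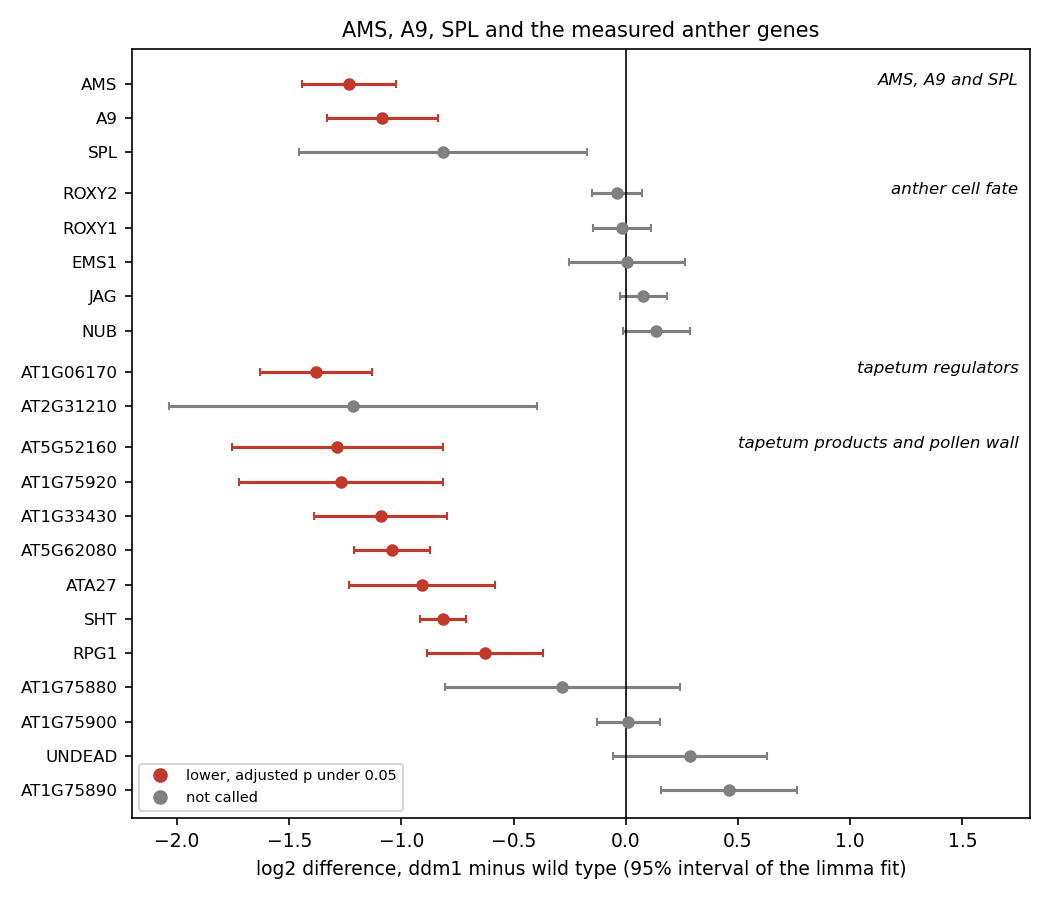
Log2 difference, ddm1 minus wild type (horizontal axis), with the 95% interval of the limma fit, for AMS, A9, SPL and the 18 measured genes of 3 anther lists; red marks a fall at an adjusted p under 0.05. The 8 red genes of the tapetum lists lie between -1.38 and -0.63, and the anther cell fate genes between -0.04 and 0.14.

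Of the 8 falls, those of AT1G06170, SHT and AT5G62080 were called by limma under all 13 alternatives run, and that of AT1G33430 under 12 of them. The call of AT5G52160 was lost without ddm1 replicate 2 (limma adjusted p = 0.0536). That of AT1G75920 was lost without wild type replicate 2 or 3 (0.0556 and 0.0581), and that of ATA27 without wild type replicate 1 or 3 (0.0636 and 0.0528). RPG1 lost its call without ddm1 replicate 2 and without wild type replicate 1, 2 or 3 (limma adjusted p from 0.0695 to 0.0715). Without variance moderation the calls of AT5G52160, AT1G75920, ATA27 and RPG1 were lost (limma fit, adjusted p from 0.0720 to 0.0916).

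Of the 8 tapetum genes that fell, 7 had their lowest ddm1 value in replicate 1, as A9 and SPL had, and 7 their highest in replicate 3, as AMS had. How often this order held among all probe sets called lower was not counted, so it is not shown to be particular to these genes. AT1G75920 read -1.49, -0.92 and -0.92 in ddm1, lowest in replicate 1 as A9 and SPL were, with replicates 2 and 3 nearly equal. The mean of these 8, which were selected because they fell, was -1.07, -0.85 and -0.70 in ddm1 replicates 1, 2 and 3, against 0.13, 0.24 and 0.16 in wild type. Over all 13 measured tapetum genes the mean was -0.80, -0.48 and -0.49 in ddm1, against 0.14, 0.16 and 0.04 in wild type, so that ddm1 replicate 1 was lowest and the other ddm1 replicates were nearly equal. AT1G75880, which was not called, had a spread like that of SPL, with -0.72, 0.10 and -0.29 in ddm1, against 0, 0.04 and -0.11 in wild type.

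**Figure D3:**
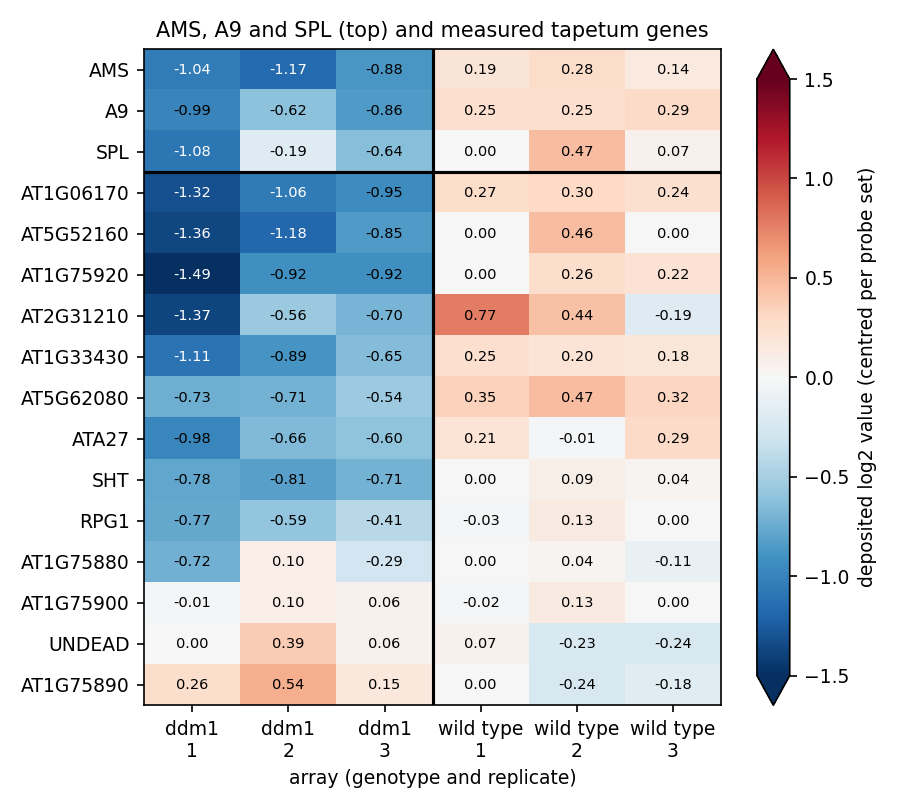
Deposited log2 values, centred per probe set (colour and printed value), in the 3 ddm1 arrays (left) and 3 wild type arrays (right) for AMS, A9 and SPL (top rows) and the 13 measured tapetum genes below, sorted by difference. AMS is lowest in ddm1 replicate 2, whereas 7 of the 8 tapetum genes that fell are lowest in ddm1 replicate 1.

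The genes closest to each of the 3 in pattern were found by Euclidean distance over the 6 arrays, after the mean of each probe set over the arrays was subtracted. LCR68, a gene for a small cysteine-rich defensin-like peptide, was nearest to AMS among 13512 other single-gene probe sets, at a distance of 0.0561 log2 units. LCR68 read -0.95, -1.01 and -0.72 in ddm1, against 0.33, 0.41 and 0.30 in wild type, so that every array stood at nearly the same offset from AMS. AT2G03740 (0.138), AT5G40040 (0.195), AT5G02570 (0.201) and AT5G61110 (0.204) followed by distance. Their log2 differences ran from -1.31 to -1.11, a likeness to AMS that the choice by distance fixes, here and for the loci nearest to A9 and SPL.

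AT1G06250 (0.192), AT2G12400 (0.20), AT2G03850 (0.217), AT1G30020 (0.228) and AT4G14815 (0.241) were nearest to A9 by distance. For SPL the nearest loci were further off, AT3G19390 (0.278), AT2G20480 (0.307), AT2G28200 (0.385), AT2G13350 (0.393) and AT4G30500 (0.405). AT3G19390 read -1.15, -0.16 and -0.89 in ddm1, against 0, 0.19 and -0.03 in wild type, with ddm1 replicate 2 close to wild type as for SPL. A9 stood at rank 69 by nearness to AMS, and SPL at rank 452. From SPL, A9 stood at rank 70 and AMS at rank 813. Among the listed tapetum genes, AT5G62080 (rank 10), AT1G33430 (rank 18) and AT1G06170 (rank 19) were nearest to AMS.

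None of the measured neighbouring loci was called lower by limma, where 5.68% of all probe sets were. With so few loci measured, this does not set them apart from all probe sets. Up to 5 loci on each side were taken in the RefSeq gene order, 10 around each gene, of which 1 near A9 and 0 near AMS and SPL are typed as pseudogenes, the type that takes in transposable elements. Around AMS 3 of 10 loci were measured and 0 were called, with differences from -0.17 to 0.01 and 1 locus, AT2G16940, lower at an unadjusted p under 0.05. Around SPL 7 of 10 were measured and 0 were called by limma, with differences from -0.42 to 0.999. Of these 7, AT4G27300 and PHOS34 were higher at an unadjusted p under 0.05 and 0 were lower. Around A9 2 of 10 were measured. IQD24, the locus next to A9, encodes a calmodulin-binding IQ-domain protein and rose by 0.51 ± 0.08 (SE; limma adjusted p = 0.0190). IQD24 read 0.34, 0.30 and 0.46 in ddm1, against 0, -0.23 and -0.20 in wild type. Its call was lost without wild type replicate 2 or 3 and without ddm1 replicate 1 or 3 (limma adjusted p from 0.0535 to 0.0671).

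**Figure D4:**
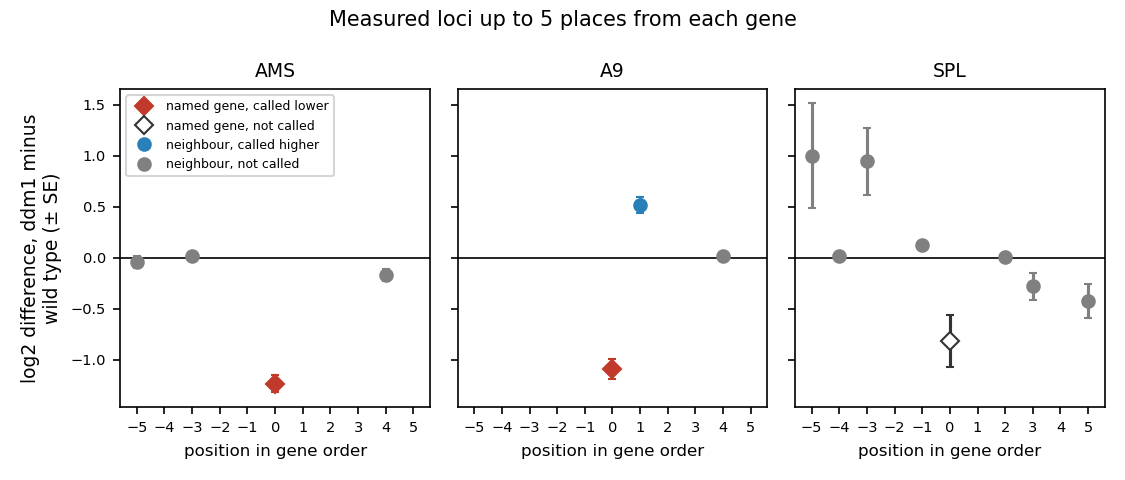
Log2 difference, ddm1 minus wild type ± SE (vertical axis), of AMS, A9 and SPL (diamonds at position 0) and of measured loci up to 5 places away in the gene order (circles). IQD24, next to A9, is the called neighbour, at 0.51.

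Other tissues of the bud moved in part with these genes. In the pollen list 13 of 21 genes were measured, and 6 fell and 0 rose, where 5.68% of all probe sets fell and 3.5% rose. The median log2 difference of the list was -0.65. They included ACT12, an actin of pollen, at -1.78 ± 0.09 (SE), and MGH3, the histone H3 of the male gametes, at -0.93 ± 0.13 (limma adjusted p = 0.000334 and 0.0135). The deepest fall was that of SWEET5, at -3.61 ± 0.36 (limma adjusted p = 0.00463). The 7 genes not called ran from -0.72 (AGL104) to 0.03 (ACT11), with ANX1, ANX2 and BUPS2 at 0.01, -0.01 and 0.03. The call of MGH3 was lost without wild type replicate 2 (limma adjusted p = 0.0516). The list mean, which takes in SWEET5, was -0.90, -0.77 and -0.68 in ddm1, against 0.09, 0.06 and 0.00 in wild type. Its order over the ddm1 arrays was that of the tapetum genes selected because they fell. Over all 13 measured tapetum genes, the means of ddm1 replicates 2 and 3 were nearly equal, so their order cannot be compared. Of 7 measured meiosis genes, which work in the cells that SPL helps to specify, 0 were called by limma, with 0 at an unadjusted p under 0.05. Their differences ran from -0.19 to 0.01. Whether these 7 transcripts, or those of ANX1, ANX2 and BUPS2, lay above background is unknown, so a fall might not show. With so few genes measured, 0 calls do not set the meiosis genes apart from the 5.68% lower over all probe sets.

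In the ovule and gynoecium list 4 of 16 genes were measured and 1 rose, NGA1, a transcription factor of style development, by 0.33 ± 0.06 (SE; limma adjusted p = 0.0333). INO, an ovule integument gene, was at -0.08 ± 0.08. Of 3 green tissue genes 1 rose, and the list mean lay from 0.17 to 0.28 in ddm1 arrays and from -0.12 to -0.04 in wild type arrays. The NGA1 call was lost without wild type replicate 1, 2 or 3 and without ddm1 replicate 2 or 3 (limma adjusted p up to 0.103). The green tissue gene that rose, LHCB4.2, lost its call without wild type replicate 1 or 2 or ddm1 replicate 2 (limma adjusted p up to 0.0576). Of 3 floral organ identity genes and 3 reference genes, 0 were called by limma, with 0 and 1 at an unadjusted p under 0.05. Signal over background is unknown for these lists too. Whether the share of anther tissue or the stage of the buds differed between the samples was not tested, and its part in the AMS and A9 falls was not tested.

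**Figure D5:**
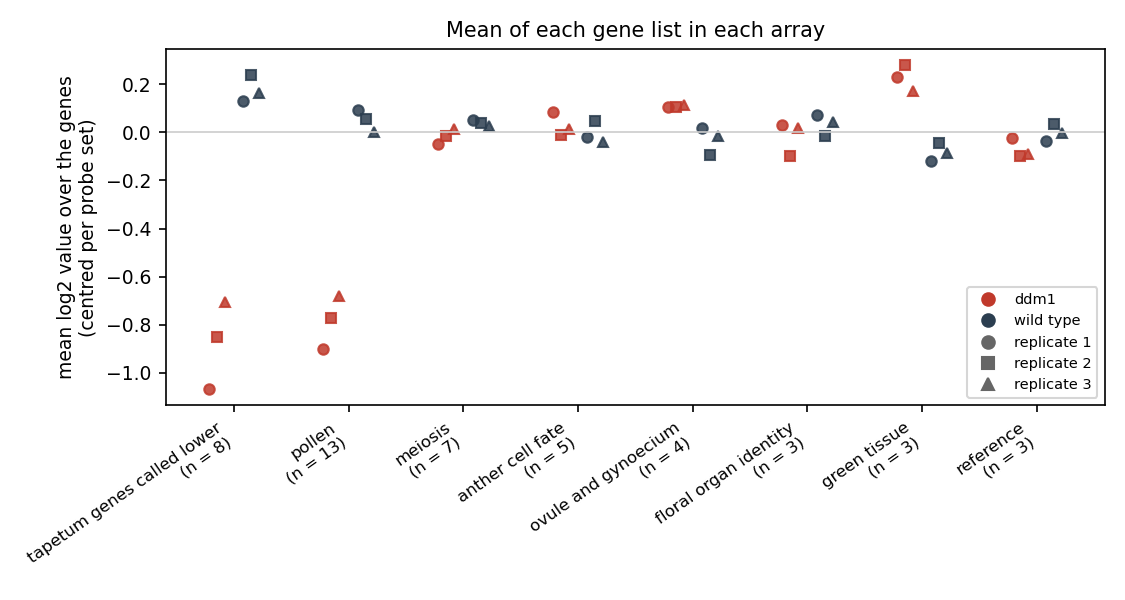
Mean deposited log2 value over the measured genes of each list (vertical axis), 1 point per array, ddm1 in red on the left and wild type in dark on the right of each list. The means of the 8 tapetum genes, selected here because they fell, and of the 13 pollen genes lie below wild type in all ddm1 arrays. Taken singly, 8 of the 13 pollen genes had every ddm1 array below every wild type array. The mean of the 7 meiosis genes lies near 0 in both genotypes, and whether these transcripts lay above background is unknown.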

How the data were processed

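Transcript abundance was measured on 1-colour oligonucleotide arrays, 3 of ddm1 and 3 of wild type buds. RNA was amplified and labelled with biotin, per the labels' protocols. The submitters' processing notes name GCRMA, without a version, as the source of the deposited log2 values. Base 2 was read from the use of GCRMA and the span of the table, -10.03 to 8.57. A baseline had been subtracted from each probe set, and neither this step nor its samples are described in the labels, so levels, and signal over background, are unknown. GCRMA compresses dim signals, so a fall towards background may be understated.

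Of 22810 probe sets, 64 controls were left out. The array annotation names 1 gene for 13513, several for 503, and leaves 8730 unnamed here. Genes were matched by gene number to RefSeq, assembly TAIR10.1 (13436 matched), which gave symbols, types and gene order. No coordinates or sequences are given.

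Values were fitted with limma 3.58.1 in R 4.3.3 (lmFit, eBayes), as a function of genotype alone, with two-sided tests. On simulated data with 200 of 22746 probe sets changed 2-fold, 78% were recovered and 7 unchanged ones were called. The 200 were drawn at random from all probe sets, so the 78% is not a rate for those with high scatter, such as SPL. Exact permutation tests used scipy 1.17.1, and figures matplotlib 3.10.9. The number of arrays limits the precision.

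AMS, A9, SPL and the gene lists were chosen with earlier results of these data known. Named were all 3 genes, up to 6 measured genes per list in order of adjusted p, the 5 nearest patterns to each gene, measured neighbours within 5 loci and up to 4 genes of the same family. The family rule used RefSeq symbols and synonyms, since the table holds no descriptions. Alternatives left out each array, added the replicate number, centred each array on its median, changed the variance model or array weights, or changed the probe sets tested. A filter on SD stood in for one on level.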

Additional observations from a re-analysis of the deposited data

How the results depend on the processing

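The AMS and A9 falls were called by limma under all 13 alternatives, with differences from -1.37 to -1.17 and from -1.19 to -0.91. SPL was called only when the test was limited to probe sets whose SD over the arrays was above the median (-0.82, adjusted p = 0.0272), a filter that favours probe sets that differ between groups. Leaving out 1 array gave 5 to 8 other anther genes lower, and 629 to 1011 probe sets lower and 432 to 788 higher. Without variance moderation 4 other anther genes, 429 lower and 373 higher probe sets were called. With array weights, which gave ddm1 replicate 2 a weight of 5.59, 3 other anther genes were higher, and 3597 probe sets were lower and 2185 higher. The SD filter gave 1 higher anther gene. Fewer probe sets were tested with single-gene plain _at sets (634 lower, 379 higher). Without the adjacent loci AT1G75880 to AT1G75940, an alternative added after seeing the data, 6 other anther genes were lower. Leaving out 1 array moved the difference of AMS against SPL between -0.63 and -0.13, of A9 against SPL between -0.42 and -0.15, and of AMS against A9 between -0.24 and 0.02. Some alternatives used fewer probe sets or arrays, and why the counts and differences moved was not tested.

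For 74 other named genes, 66 of 938 values lost a call and 24 gained one, and 0 called values turned direction. Genes called in neither fit changed sign 26 times.

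Deviations from the group means correlated at 0.0752, 0.0900 and 0.0159 between arrays of equal number, so the numbers are not shown to pair them. A ddm1 array was closest to the wild type array of its number in 2 of 3 cases. With the replicate block, 4 other anther genes were lower, the calls of AT1G33430, AT5G52160, ATA27 and RPG1 being lost (limma adjusted p = 0.0542, 0.0736, 0.0691 and 0.0719), with 553 probe sets lower and 433 higher. AMS, A9 and SPL had adjusted p-values of 0.0346, 0.0375 and 0.0664.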

Other observations

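The transcription factor family of AMS was also examined. Of 34 further loci that the RefSeq symbols or synonyms name as basic helix-loop-helix (bHLH) genes, 7 were measured, and 0 were called by limma, with 0 at an unadjusted p under 0.05 in the lower direction. Their median log2 difference was 0.05, with a range from -0.11 to 0.40. AT1G06170 and AT2G31210, which stand in the tapetum regulator list as bHLH089 and bHLH091, have no such symbol or synonym. They are not among these 7, so the count is not one of the whole family. Both lay lower in ddm1, at -1.38 ± 0.10 (called) and -1.21 ± 0.33 (not called). bHLH115 was the highest, at 0.40 ± 0.09 (SE, limma adjusted p = 0.0531), and bHLH34 the lowest, at -0.11 ± 0.08. These 7 take in bHLH115, bHLH104, ILR3, bHLH34, bHLH121 and bHLH101, regulators of the iron response in roots and leaves.

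Among the neighbours of SPL, AT4G27280 varied most within a genotype. It read -0.13, 0 and -0.35 in ddm1, against -1.59, -1.88 and 0 in wild type, so that wild type replicate 3 stood apart from the other wild type replicates and within reach of ddm1. AT4G27300 read 1.52, 0.36 and 0.57 in ddm1, against -0.38, 0.00 and 0 in wild type, and was not called (limma adjusted p = 0.166).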
